A study of Mus musculus with 6 samples.

Results

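The miR-29 family was examined in mouse kidney through its 7 mature forms, which were taken from the arrays by name: mmu-miR-29a-3p, mmu-miR-29b-3p and mmu-miR-29c-3p from the 3′ arms of the hairpins, and mmu-miR-29a-5p, mmu-miR-29b-1-5p, mmu-miR-29b-2-5p and mmu-miR-29c-5p from the 5′ arms. The species prefix is left out in places below. All 7 were found among the 1247 mouse miRNAs of the array, and no measured value entered that choice. Of the 7, the 3p forms and miR-29c-5p were well above background and were among the 193 miRNAs that were tested for a difference with age. The other 3 members are described by their values alone.

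The samples were kidney RNA of male C57BL/6 mice, a standard inbred laboratory strain, aged 20 months (3 arrays) or 2 months (3 arrays). The labels name no genotype or treatment beyond the strain. Small RNA of each preparation carried a ligated Cy3 dye, and each was read on a separate Agilent array with 1 colour. The preparations are described as independent, and the labels do not say which animals they came from. The p-values therefore cover differences among preparations only, and these may be technical in part.

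miRNAs are short RNAs that guide Argonaute proteins to messenger RNAs and lower their output, and the bases next to the 5′ end, called the seed, do most of the target recognition. The miR-29 family is known for repressing collagens, elastin, fibrillin and other matrix transcripts, and DNA methyltransferases as well. In the kidney it is known as an antifibrotic family that TGF-beta signalling lowers. A hairpin yields a duplex of its 5′ and 3′ arms, and for miR-29 the 3p arm is the one that usually stays in Argonaute, while the 5p arm is mostly degraded.

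The mature sequences are shown because the age comparison rests on probes that must tell them apart. They are RefSeq sequences (GRCm38.p6), written 5′ to 3′, with the seed (bases 2 to 8) in capitals, and all 7 members matched by name.
miR-29a-3p: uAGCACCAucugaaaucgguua
miR-29b-3p: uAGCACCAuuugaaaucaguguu
miR-29c-3p: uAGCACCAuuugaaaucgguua
miR-29c-5p: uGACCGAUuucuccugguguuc
miR-29a-5p: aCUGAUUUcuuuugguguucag
miR-29b-1-5p: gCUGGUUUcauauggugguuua
miR-29b-2-5p: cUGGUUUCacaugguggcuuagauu

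The 3p forms shared the seed AGCACCA, which pairs with UGGUGCU in a target, and 0 of the other mouse miRNAs in that table carried it. Each of the 5p forms had a seed of its own, and that of miR-29b-2-5p was shared with miR-6338. Counted from the 5′ end, miR-29a-3p and miR-29c-3p differed by the single substitution C10U and ended in the same 12 bases. miR-29b-3p and miR-29c-3p shared their first 17 bases and differed by A18G, G21U and U22A, and miR-29b-3p is 1 base longer. Against this, the longest 3′ end that any of the 3 shared with a miRNA outside the family was 7 bases, between miR-29b-3p and miR-92b-5p. Among the 5p forms the longest common run was 9 bases between miR-29b-1-5p and miR-29b-2-5p, and 8 between miR-29a-5p and miR-29c-5p. Runs of 9 bases were also shared by miR-29a-5p, miR-29b-2-5p and miR-29c-5p with miRNAs outside the family. A run ends at the first mismatch, so it does not measure the likeness of whole sequences. Probe sequences were not used here, so signal that passes between 29a and 29c probes cannot be measured.

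The 7 forms come from 4 hairpins in 2 clusters, shown with the mature arms in capitals. miR-29b-3p is cut from a hairpin of each cluster, so its probes read both loci together.
Mir29b-1: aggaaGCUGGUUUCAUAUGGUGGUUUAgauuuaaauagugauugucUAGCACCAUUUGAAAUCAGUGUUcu
Mir29a: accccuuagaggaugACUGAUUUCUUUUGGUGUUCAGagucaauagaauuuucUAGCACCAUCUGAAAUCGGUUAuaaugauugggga
Mir29b-2: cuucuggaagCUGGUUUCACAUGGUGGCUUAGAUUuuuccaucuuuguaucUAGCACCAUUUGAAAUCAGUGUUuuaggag
Mir29c: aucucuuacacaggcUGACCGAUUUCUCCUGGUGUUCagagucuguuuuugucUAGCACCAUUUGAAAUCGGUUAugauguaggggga

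In RefSeq on GRCm38.p6 the Mir29a hairpin lies at chr6:31062660-31062747 and the Mir29b-1 hairpin at chr6:31063023-31063093, both on the minus strand with 275 bases between them. No annotated gene spans that pair, and the nearest other gene is the long noncoding RNA Lncpint. The Mir29b-2 hairpin lies at chr1:195037040-195037120 and the Mir29c hairpin at chr1:195037547-195037634, both on the plus strand with 426 bases between them. That pair lies within the span of the long noncoding RNA A330023F24Rik. miR-29c-3p and miR-29c-5p are thus encoded in the chromosome 1 cluster and miR-29a-3p in the chromosome 6 cluster. Signal that passes between the miR-29a-3p and miR-29c-3p probes cannot be measured. The array signals of these forms therefore cannot be assigned to separate clusters.

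Across the series, 177 to 206 miRNAs were well above background on the 20-month arrays and 193 to 209 on the 2-month arrays. Intensities were divided by each array's 75th percentile over the 315 probes detected on all arrays, which was 1171 to 2054 units at 20 months and 1191 to 1415 at 2 months. Saturated spots numbered 0. The 6 arrays share 1 slide, with 20-month array 1 in the row of the 2-month arrays and 20-month arrays 2 and 3 in the next row. In log2 level over the tested miRNAs, 20-month arrays correlated with each other at 0.972 to 0.989 and 2-month arrays at 0.998. All 8 kidney-enriched miRNAs of the marker list, among them miR-192-5p and miR-204-5p, were detected on every array. Of the 8 listed miRNAs of other organs, 6 were detected on none, miR-1a-3p of muscle on 2 arrays of each age, and miR-124-3p of brain on 3 of the 20-month arrays and 0 of the 2-month arrays. The number of arrays limits the precision.

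The 3p forms and miR-29c-5p all rose in 20-month kidney, by 1.48- to 1.6-fold. Levels are given as scaled intensity, in which 1 is the array's 75th percentile, summed over the probes of a miRNA. They depend on the probes and are not set against each other between miRNAs.

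mmu-miR-29a-3p stood at 13.0, 14.2 and 14.4 on the 20-month arrays, against 9.02, 8.77 and 9.02 on the 2-month arrays. The lowest 20-month value lay well above the highest 2-month value, and the 2-month arrays lay close together. On the log2 scale it averaged 3.79 ± 0.08 at 20 months and 3.16 ± 0.02 at 2 months (SD, n = 3 each). The log2 difference was 0.63 ± 0.07 (SE, 95% interval 0.46 to 0.81, limma adjusted p = 0.00495).

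mmu-miR-29b-3p, known in human cells for a 3′ end that directs it to the nucleus, stood at 7.40, 7.96 and 7.22 in 20-month kidney, against 4.73, 4.75 and 4.65 in 2-month kidney. The groups did not overlap, and 20-month array 2 was the highest. Its log2 level averaged 2.91 ± 0.07 at 20 months and 2.24 ± 0.02 at 2 months (SD, n = 3 each). The log2 difference of 0.68 ± 0.07 (SE, 95% interval 0.50 to 0.85) had a limma adjusted p of 0.00399.

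mmu-miR-29c-3p, the 3p form of the Mir29c hairpin, stood at 8.02, 9.34 and 8.69 on the 20-month arrays, against 5.82, 5.72 and 6.07 on the 2-month arrays. The groups again did not overlap, with 20-month array 1 the lowest of its group. Its log2 level averaged 3.11 ± 0.11 at 20 months and 2.55 ± 0.04 at 2 months (SD, n = 3 each), a difference of 0.56 ± 0.08 (SE, 95% interval 0.36 to 0.76, limma adjusted p = 0.0134).

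mmu-miR-29c-5p, the opposite arm of the same hairpin, stood at 0.130, 0.150 and 0.155 in 20-month kidney, against 0.0936, 0.0913 and 0.0995 in 2-month kidney. Its groups did not overlap either, and 20-month array 1 was again the lowest of its group. Its log2 level averaged -2.79 ± 0.14 at 20 months and -3.40 ± 0.06 at 2 months (SD, n = 3 each). The log2 difference of 0.61 ± 0.09 (SE, 95% interval 0.38 to 0.84) had a limma adjusted p of 0.0136.

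**Figure D1:**
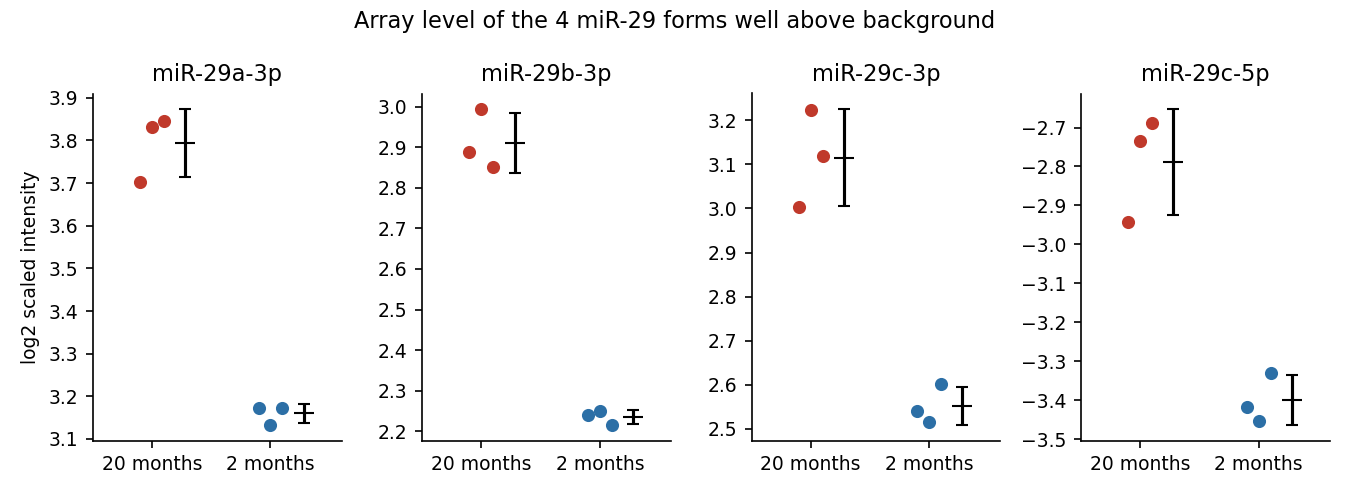
Log2 scaled intensity (y axis) of the 4 tested miR-29 forms on the 3 20-month arrays (red) and the 3 2-month arrays (blue), with the mean and SD of each group in black and a y axis of its own for each form. In all 4 panels every 20-month array lies above every 2-month array, and the 2-month arrays lie closer together.

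All 4 tested members were higher past the threshold of 0.05. Of all 193 tested miRNAs, these members included, 4.15% were higher past it (8 higher, and 7 lower). The split of that total depended on the scaling, with 13 higher and 1 lower under quantile normalization and 18 and 3 with the median over detected probes. For all 4 members every 20-month array lay above every 2-month array, which held for 10.4% of the tested miRNAs. In the order of the differences the members took ranks 3 to 6, behind miR-34a-5p and miR-124-3p, whose fitted difference depends on the floor set for dim signals. Their log2 differences ran from 0.56 to 0.68, against a median of -0.08 over all tested miRNAs. Members of 1 family share sequence and 2 loci, so the 4 results are not independent of each other.

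**Figure D2:**
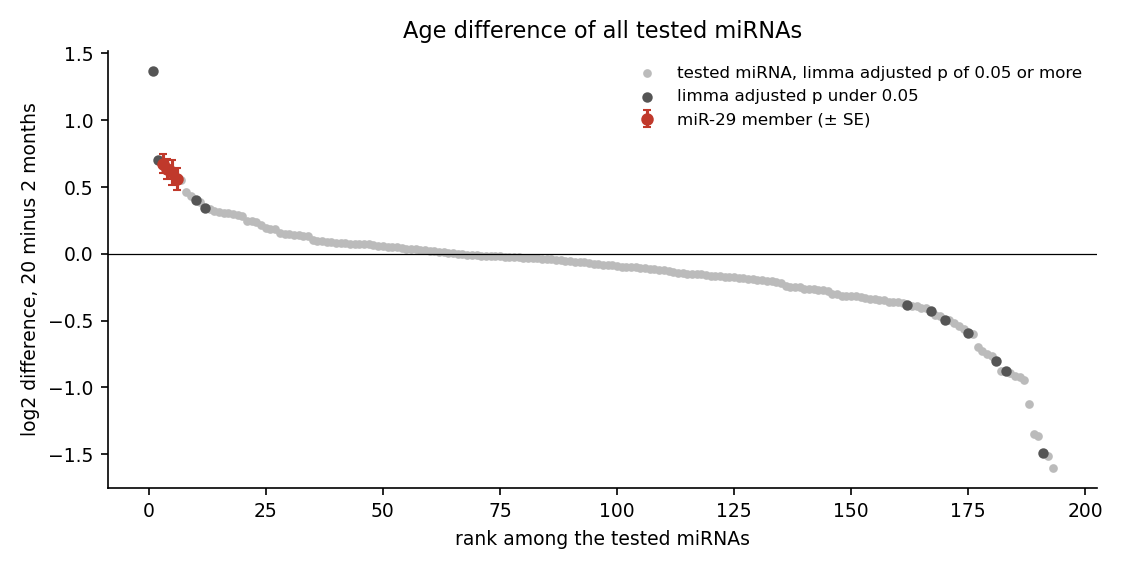
Log2 difference, 20 minus 2 months (y axis), of the 193 tested miRNAs in order of size (x axis, rank), with those at a limma adjusted p under 0.05 in dark grey and the miR-29 members in red with their SE. The members hold ranks 3 to 6, from 0.68 to 0.56.

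The slide row bears on these results, since 20-month array 1 is the 1 array of its age in the row of the 2-month arrays. Against the 2-month mean, that array stood at 0.54 for miR-29a-3p, 0.65 for miR-29b-3p, 0.45 for miR-29c-3p and 0.46 for miR-29c-5p (log2). On 20-month arrays 2 and 3, in the other row, the same differences were 0.67 and 0.69 for miR-29a-3p, 0.76 and 0.62 for miR-29b-3p, 0.67 and 0.57 for miR-29c-3p, and 0.67 and 0.71 for miR-29c-5p. The array that shares the row of the 2-month arrays was thus the lowest of its group for 3 of the 4 members and still above all 2-month arrays.

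With slide row as a block, only miR-29b-3p remained past the threshold among the 4, and limma gave adjusted p = 0.0637 for miR-29a-3p and 0.106 for both miR-29c forms. Within slide row 1 alone all 4 passed, but there the single 20-month array was assumed to vary like the 2-month ones. Without 2-month array 1 (limma adjusted p = 0.0864 for both) or without 2-month array 2 (0.0731 for both), miR-29c-3p and miR-29c-5p no longer passed, while miR-29a-3p and miR-29b-3p passed whichever array was left out (differences of 0.61 to 0.68 and of 0.63 to 0.71).

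Each of the 4 tested members was read by 2 probes of 20 spots per array, and both probes of each rose. Over the 354 probes tested in the same way, 3.67% were higher past the threshold and 9.32% had every 20-month array above every 2-month array, where all 8 probes of these members did both. Both shares include these 8 probes. The probes of miR-29a-3p rose by 0.60 ± 0.07 (A_54_P2488) and 0.65 ± 0.08 (A_54_P2489, log2 ± SE), with a limma adjusted p of 0.00737 each. Those of miR-29b-3p rose by 0.63 ± 0.09 (A_54_P1011, limma adjusted p = 0.0126) and 0.68 ± 0.07 (A_54_P1012, 0.00581). Those of miR-29c-3p rose by 0.57 ± 0.09 (A_54_P2492) and 0.56 ± 0.09 (A_54_P2493), with a limma adjusted p of 0.0137 each. Those of miR-29c-5p rose by 0.58 ± 0.08 (A_54_P3466, limma adjusted p = 0.0126) and 0.62 ± 0.10 (A_54_P3467, 0.0185). A_54_P3466 was at the edge of detection on 2-month array 2, with 11 of 20 spots well above background. Its mean intensity of 36.9 was the lowest of any detected probe there. The 2 probes of a form differed from each other by no more than their SE.

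The brightness of the 2 probes of a form was far apart for miR-29b-3p and close for miR-29c-3p. The dimmer probe of miR-29b-3p had 0.0731 to 0.0801 of the signal of the brighter one on 20-month arrays and 0.0769 to 0.0837 on 2-month arrays. For miR-29c-3p this share was 0.829 to 0.861 at 20 months and 0.799 to 0.884 at 2 months. For miR-29a-3p it was 0.401 to 0.423 at 20 months against 0.420 to 0.436 at 2 months, and for miR-29c-5p 0.481 to 0.547 at 20 months against 0.507 to 0.539 at 2 months. The ranges of the 2 ages overlapped for each form, so the share separated the ages for none of the 4.

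The single spots show how far the ages were apart within the noise of an array. For A_54_P1012 of miR-29b-3p, 0 of 55 kept 20-month spots lay at or below the brightest 2-month spot (6.06 at the lowest against 5.18). The same count was 0 of 58 for A_54_P2489 of miR-29a-3p and 0 of 58 for A_54_P2493 of miR-29c-3p. The dimmer probes overlapped more, with 1 of 60 spots for A_54_P2488, 3 of 60 for A_54_P2492 and 8 of 56 for A_54_P1011. For miR-29c-5p it was 7 of 57 and 8 of 57. Spots of 1 array are repeat readings of 1 RNA and not replicates.

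**Figure D3:**
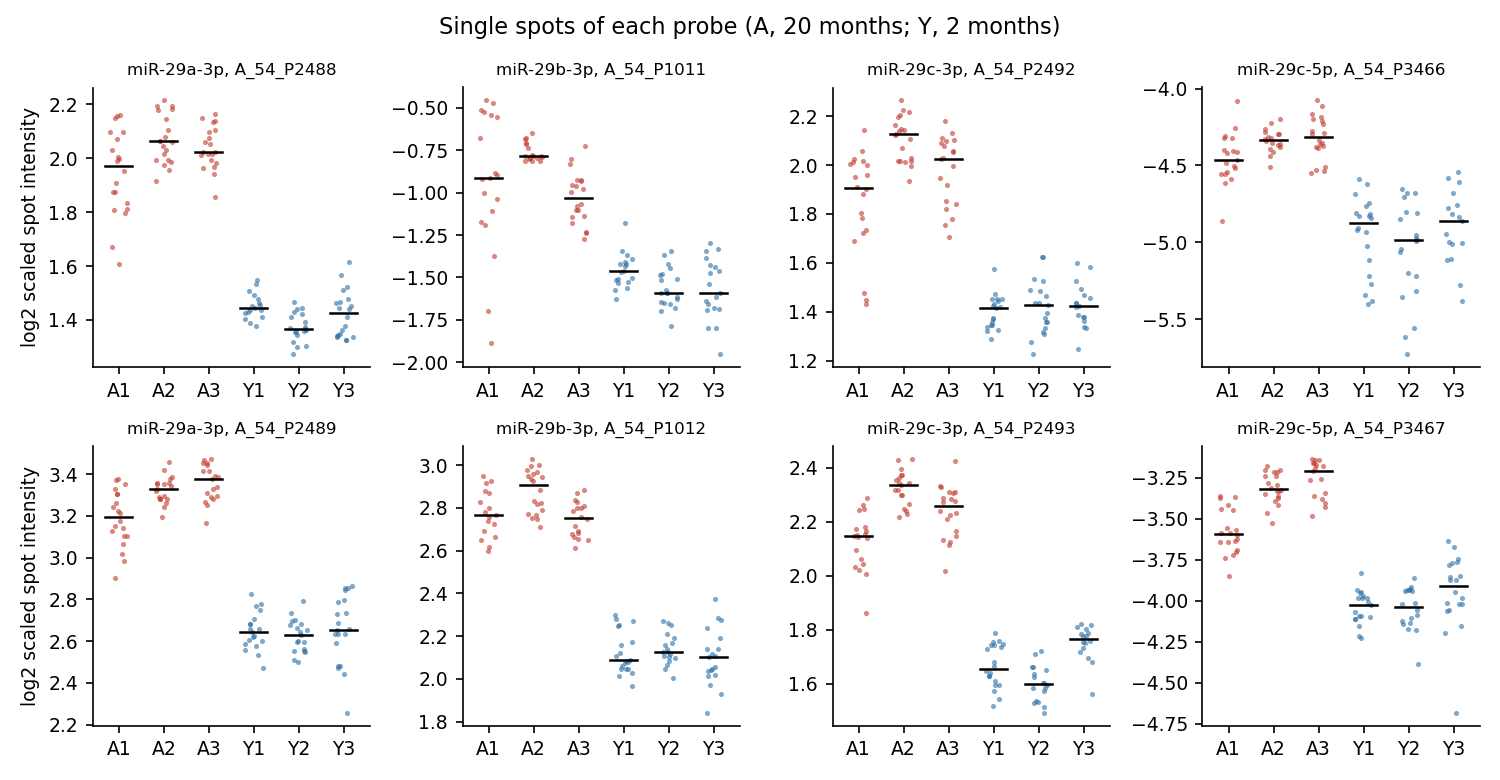
Log2 scaled intensity of every kept spot (y axis) on each array (x axis, A for 20 months in red and Y for 2 months in blue) for the 8 probes of the tested members, with the median of an array as a black line. The lower row for miR-29a-3p, miR-29b-3p and miR-29c-3p shows no overlap between ages, and 20-month array 1 has the widest scatter for A_54_P1011, with a coefficient of variation of 25.7%.

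Whether the members differed from each other in their response to age was tested on 4 pairs with an exact two-sided permutation test over the arrays, which cannot give a p below 0.1 with 3 against 3. The log2 ratio of miR-29b-3p to miR-29c-3p changed by 0.11 (95% interval -0.05 to 0.27, exact permutation p = 0.1, adjusted 0.4). That of miR-29a-3p to miR-29c-3p changed by 0.07 (-0.04 to 0.18, exact permutation p = 0.3, adjusted 0.5), and that of miR-29a-3p to miR-29b-3p by -0.04 (-0.21 to 0.13, exact permutation p = 0.5, adjusted 0.5). The opposite arms of the Mir29c hairpin, miR-29c-5p over miR-29c-3p, changed by 0.05 (-0.09 to 0.19, exact permutation p = 0.5, adjusted 0.5). With this number of arrays no pair could pass 0.05, so the test cannot decide whether the members differ. The ratio of miR-29b-3p to miR-29c-3p had the smallest p that the test can give. The intervals leave room for differences of up to about 0.27 on the log2 scale.

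The other 5p forms were not well above background on any array. miR-29a-5p, opposite miR-29a-3p, had 4 probes whose mean processed intensities ran from -2.55 to 7.77 over all arrays, and 0 of its 233 kept spots were well above background. miR-29b-2-5p had 2 probes between -2.34 and 2.86, with 0 of 228 kept spots above. Both lay below the 95th percentile of the single negative control spots, which was 12.5 to 18.3 on 20-month arrays and 14.7 to 19.2 on 2-month arrays. A probe mean averages several spots and varies less than a single spot, so this comparison is a rough one.

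miR-29b-1-5p came closer to detection, mainly through 1 of its 4 probes. That probe, A_54_P3268, had a mean intensity of 17.6, 35.7 and 25.9 on the 20-month arrays, against 15.9, 10.7 and 15.4 on the 2-month arrays. After scaling these were 0.0151, 0.0174 and 0.0202 at 20 months and 0.0112, 0.00893 and 0.0130 at 2 months, so the ages did not overlap. It lay above the 95th percentile of the negative controls on 3 of the 20-month arrays and 1 of the 2-month arrays. Of its kept spots, 3 of 29 at 20 months and 0 of 27 at 2 months were well above background. No fold or test is given, since both ages lay below the detection rule. Scaled means also did not overlap for A_54_P3463 of miR-29a-5p (0.00325 to 0.0052 at 20 months, 0.000851 to 0.00274 at 2 months). Nor did they for A_54_P00004825 of miR-29b-2-5p (-0.000474 to 0.00122 and -0.00173 to -0.000898). Both of these probes had 0 spots well above background, so a gap between the ages also arose at background level. The other probes of these forms overlapped.

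**Figure D4:**
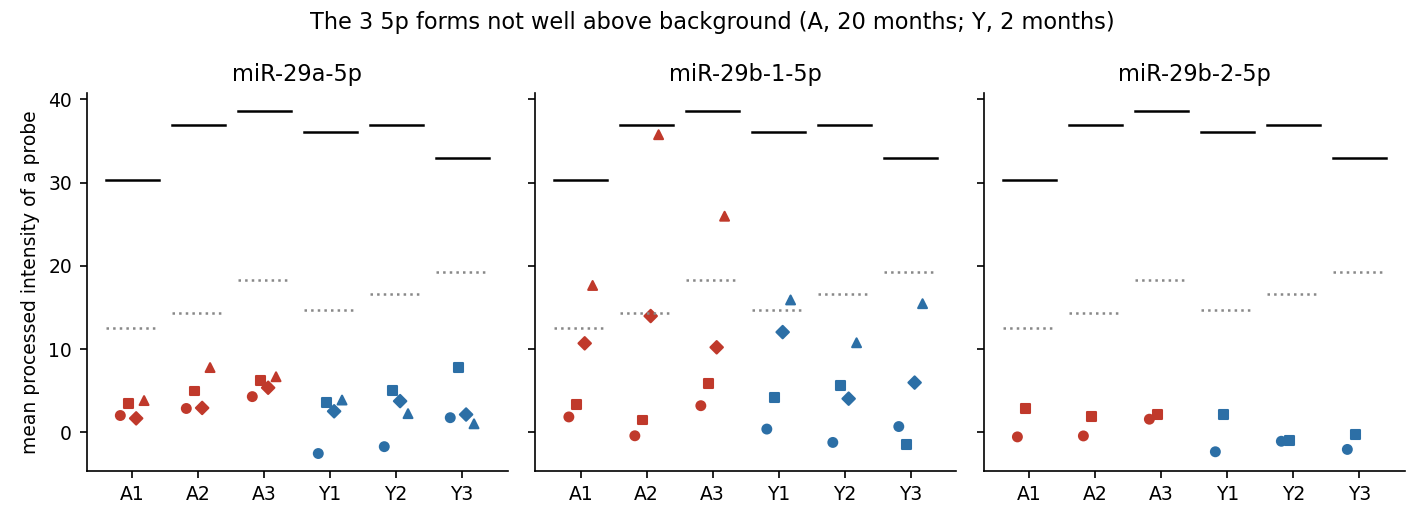
Mean processed intensity (y axis, linear) of each probe (one symbol shape per probe) of miR-29a-5p, miR-29b-1-5p and miR-29b-2-5p on each array (x axis, A for 20 months in red and Y for 2 months in blue). The dotted line is the 95th percentile of the negative control spots of the array and the black line its lowest probe well above background, and every probe lies below the black line, with A_54_P3268 of miR-29b-1-5p nearest to it.

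In the authors' deposited table, on a log2 scale, miR-29a-3p stood at 6.28, 6.57 and 6.48 on 20-month arrays, against 5.74, 5.66 and 5.68 on 2-month arrays. miR-29b-3p stood there at 5.47, 5.73 and 5.48 at 20 months, against 4.81, 4.77 and 4.72 at 2 months. In the same authors' deposited table miR-29b-1-5p had a value of -4.11 and -4.00 on 20-month arrays 2 and 3, and the table's lowest entry of each array elsewhere. That table was scaled in another way, and with its values all 4 tested members passed the threshold.

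The 5 tested miRNAs outside the family whose log2 levels over the 6 arrays were most like the mean of the 3p forms were miR-124-3p (Pearson r = 0.997), miR-199a-5p (0.990), miR-199a-3p (0.964), miR-338-3p (0.954) and miR-34a-5p (0.948). The arrays fall into 2 ages, which all these miRNAs share, so the correlation is a description and has no test. miR-124-3p, which is best known from neurons, averaged -3.85 at 20 months and lay at the detection floor of -5.22 on all 2-month arrays. It entered the fit through its 20-month arrays alone, and its correlation rests in part on that set floor. miR-34a-5p, whose gene is activated by p53, differed by 0.71 ± 0.12 (log2 ± SE, limma adjusted p = 0.0235), and miR-338-3p by 0.31 ± 0.08 (limma adjusted p = 0.0556).

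Of the 24 miRNAs listed for fibrosis and matrix control without the miR-29 family, all were on the array, 16 were tested, 2 rose, 1 fell and 13 did not pass the threshold, where 7.77% of all tested miRNAs passed in either direction. The median difference of the list was 0.11, against -0.08 over all tested miRNAs. The 2 that rose were the arms of miR-199a, known from mesenchymal cells, with miR-199a-3p at 0.40 ± 0.09 and miR-199a-5p at 0.34 ± 0.06 (log2 ± SE, limma adjusted p = 0.0391 and 0.0258). The 1 that fell was miR-141-3p of the epithelial miR-200 family, at -0.38 ± 0.08 (limma adjusted p = 0.0415). These differences were smaller in size than that of any tested miR-29 member.

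Summed levels of markers of several other cell types lay apart between the ages on the same arrays. Counts at an unadjusted p under 0.05 stand against 25.4% of all tested miRNAs by limma, 9.84% higher and 15.5% lower. The summed scaled level of the 6 leukocyte miRNAs on the array was 1.02 to 1.21 at 20 months and 0.799 to 0.921 at 2 months, with 0 of 5 tested past the threshold by limma and 3 at an unadjusted p under 0.05. Of these, miR-223-3p of myeloid cells differed by 0.55 ± 0.13 (log2 ± SE, limma adjusted p = 0.051), miR-142-3p by 0.46 ± 0.17 (0.14) and miR-146a-5p by 0.24 ± 0.09 (0.14). The sum of the 5 stromal and smooth muscle miRNAs was 2.35 to 2.57 at 20 months and 2.06 to 2.15 at 2 months, with 2 of 5 higher (both arms of miR-199a, which the fibrosis list holds too). That sum mainly follows miR-199a-3p, the brightest of the 5, with a mean log2 level of 0.57 at 20 months and 0.17 at 2 months. The next brightest, miR-143-3p, averaged -1.05 and -0.77. All 5 had an unadjusted p under 0.05, in both directions: miR-214-3p stood at 0.30 ± 0.09 (log2 ± SE, limma adjusted p = 0.0939), while the smooth muscle markers miR-143-3p and miR-145a-5p stood at -0.27 ± 0.09 and -0.25 ± 0.09 (limma adjusted p = 0.12 and 0.149). The sum of the 3 erythroid miRNAs was 6.37 to 7.17 at 20 months and 8.37 to 9.39 at 2 months, with 0 of 3 past the threshold by limma and all 3 at an unadjusted p under 0.05. Its members miR-451a, miR-3107-5p and miR-144-3p differed by -0.34 ± 0.08, -0.56 ± 0.14 and -0.73 ± 0.25 (log2 ± SE, limma adjusted p = 0.0528, 0.0528 and 0.124). The erythroid sum mainly follows miR-451a, the brightest of the 3, with a mean log2 level of 2.69 at 20 months and 3.03 at 2 months. For the kidney-enriched list the sums overlapped, at 22.1 to 25.1 at 20 months and 21.6 to 24.8 at 2 months, with 0 of 8 past the threshold by limma and 1 at an unadjusted p under 0.05, namely miR-194-5p at 0.28 ± 0.09 (limma adjusted p = 0.104). Of the 2 endothelial miRNAs only miR-126-3p was tested, at 0.08 ± 0.08 (limma adjusted p = 0.519), and the sums of the list overlapped, at 6.64 to 7.23 at 20 months and 6.21 to 6.84 at 2 months. Of the 8 miRNAs of other organs 1, miR-124-3p, entered the fit, through its 20-month arrays alone. Its 2-month values are all the set floor, so no p is given for it. The part of these shifts in the miR-29 differences was not tested. In whole tissue, a change in the number of cells of a type and a change of miRNA per cell cannot be told apart.

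The direction of the 4 differences was the same under all 25 alternative settings tried, and their size depended on the scaling. Quantile normalization gave 0.38 for miR-29a-3p, and the 75th percentile over all probes gave 1.05 for miR-29a-3p, 1.09 for miR-29b-3p, 0.97 for miR-29c-3p and 1.02 for miR-29c-5p. This 75th percentile over all probes shifted the median over the tested miRNAs by 0.41. Taken relative to that median, the differences over all alternatives ran from 0.38 to 0.75 for miR-29a-3p, 0.53 to 0.82 for miR-29b-3p, 0.46 to 0.69 for miR-29c-3p and 0.32 to 0.79 for miR-29c-5p. The call of miR-29c-5p was lost with normexp background correction, at 0.21 ± 0.10 (limma adjusted p = 0.364), while the 3p forms kept theirs. The normexp correction added an offset of 50 units, and the mean processed intensities of the miR-29c-5p probes were only 36.9 to 207. The part of the offset in this loss was not tested.

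**Figure D5:**
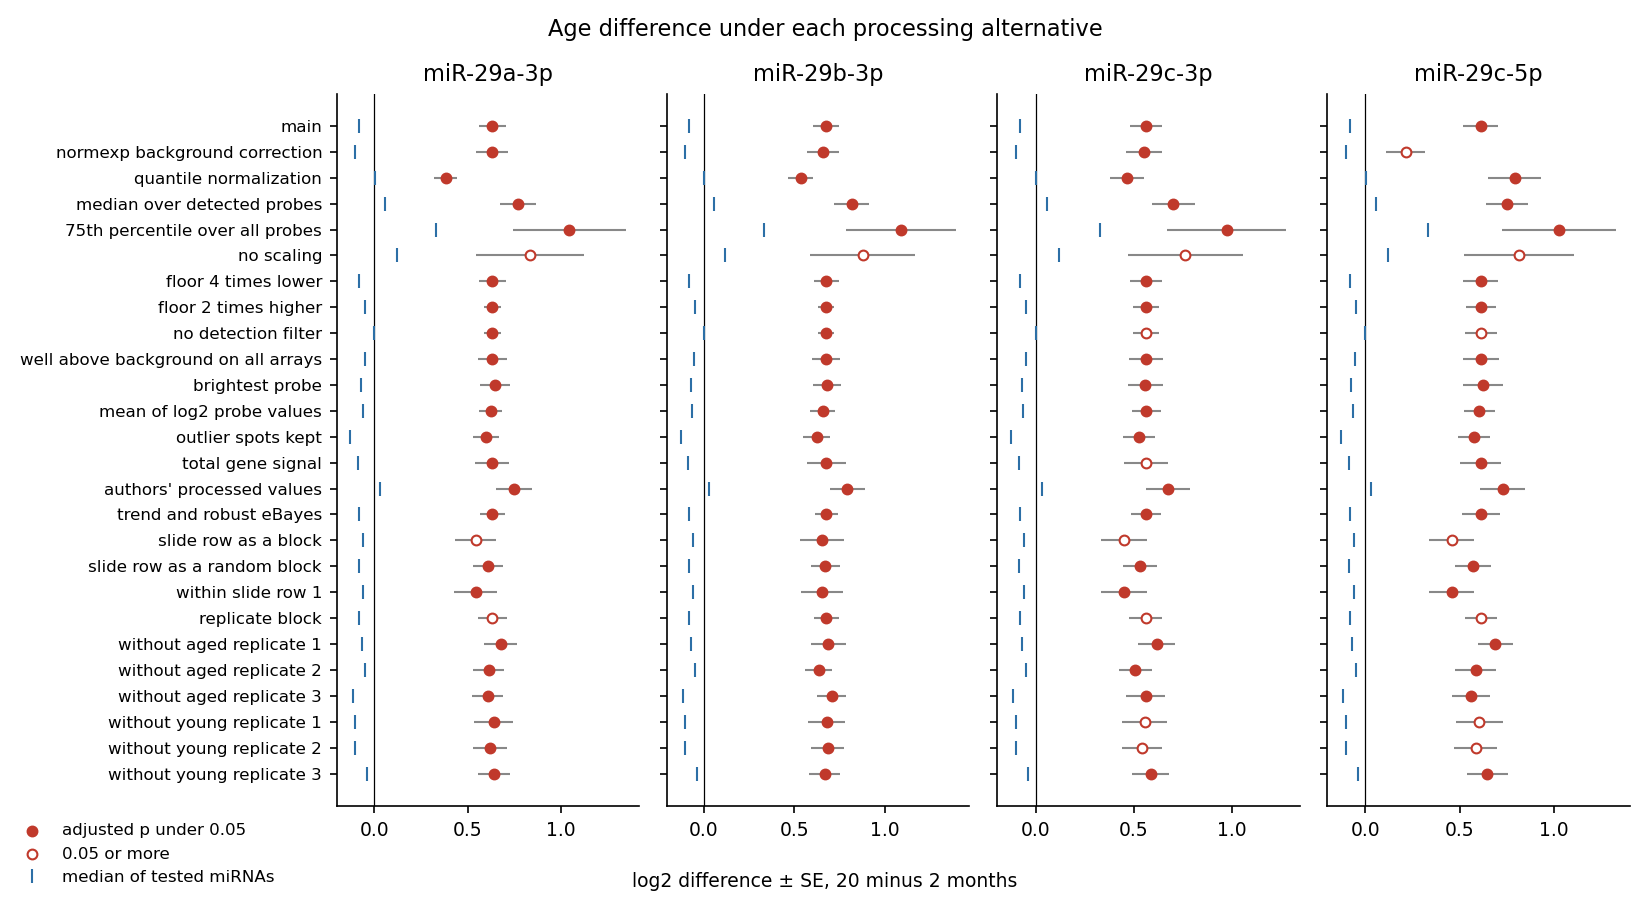
Log2 difference, 20 minus 2 months, with its SE (x axis) of the 4 tested members under the main processing and each alternative (y axis), filled where the limma adjusted p is under 0.05, with the median of all tested miRNAs as a blue tick. All points lie right of 0 and of the blue tick of their setting.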

How the data were processed

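Per the file headers, Feature Extraction 11.5.1.1 quantified Agilent arrays of design 046065. The deposited intensity of a spot was background-corrected by that software and not scaled between arrays. The authors also deposited a table on a log2 scale. It equals log2 of the software's total gene signal less 1 constant per array (largest departure 1e-05 over 1268 features), and that constant was the 90th percentile over all features, within 3.6e-06.

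Spots with an outlier flag were left out, probe means were divided by the 75th percentile of the 315 probes detected on every array, probes of a miRNA were summed, a floor of -5.22 was set on the log2 scale, and log2 was taken. A probe counted as detected when the software flagged more than 50% of its remaining spots as well above background, and a miRNA was tested where 1 probe was detected on all 3 arrays of an age. limma 3.58.1 in R 4.3.3 (lmFit, eBayes) compared 20 with 2 months over the 193 tested miRNAs and, in a separate fit, over 354 probes, with Benjamini-Hochberg adjustment. Permutation tests used SciPy 1.17.1, with intervals from the pooled SD, and figures matplotlib 3.10.9. Arrays were counted as separate preparations because the series describes them so, and no 2 held the same values. The fit was tested on simulated data. The files hold no mean signal, so normexp used the median signal.

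The members, the lists, the tests and the alternatives were chosen with earlier results of these data known. The text names all members, the 5 miRNAs most like them, and from each list those past the threshold, otherwise up to 3 with the smallest p. Beyond that rule it names the remaining tested stromal and smooth muscle miRNAs. Some miRNAs are named for detection (miR-192-5p, miR-204-5p, miR-1a-3p) or sequence (miR-6338, miR-92b-5p) alone.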

Additional observations from a re-analysis of the deposited data

Results flagged for a closer look

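The scanner software's own detection flag, which no comparison above uses, marked miR-29b-1-5p as detected on 2 of the 3 20-month arrays and on 0 of the 2-month arrays. It is listed because this flag lies outside the main measurement and was raised on none of the 2-month arrays. Its probe A_54_P3268 still lay above the 95th percentile of the negative controls on 1 of the 2-month arrays. The difference between the ages was not tested.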

How the results depend on the processing

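All 4 miR-29 differences stayed positive under the 19 alternatives that changed the processing or the model and the 6 that left out an array. Of those 19, limma kept the call in 16 for miR-29a-3p, 18 for miR-29b-3p, 14 for miR-29c-3p and 14 for miR-29c-5p. Without scaling the differences were 0.84, 0.88, 0.76 and 0.81 in that order, with 0 members past the threshold by limma and 4 at an unadjusted p under 0.05. Without a detection filter, which adjusts over 1247 miRNAs, 2 members passed, with miR-29c-3p at 0.56 and miR-29c-5p at 0.61 not passing. With the total gene signal miR-29c-3p, at 0.56, had a limma adjusted p of 0.0508, and with normexp miR-29c-5p was at 0.21. With slide row as a block 1 member passed, and miR-29a-3p (0.54), miR-29c-3p (0.45) and miR-29c-5p (0.46) did not. The labels do not say whether the replicate numbers pair the arrays. Deviations correlated at 0.12, -0.58 and 0.31, and with 3 arrays per age these values cannot decide it. With the replicate block 1 member passed, with miR-29a-3p at 0.63, miR-29c-3p at 0.56 and miR-29c-5p at 0.61. The cause of these losses was not tested.

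Leaving out each array in turn gave 0.61 to 0.68 for miR-29a-3p, 0.63 to 0.71 for miR-29b-3p, 0.51 to 0.62 for miR-29c-3p, 0.56 to 0.69 for miR-29c-5p, and 2 to 4 members past the threshold. The calls over all miRNAs then ran from 3 to 12 higher and 2 to 27 lower, with 12 and 27 without 20-month array 1, 5 and 4 without 2, 11 and 12 without 3, 4 and 2 without 2-month array 1, 3 and 2 without 2, and 6 and 2 without 3. Higher and lower calls were 8 and 7 as reported, 4 and 0 with normexp (limma gave 18 lower at an unadjusted p under 0.05), 13 and 1 with quantile normalization, 18 and 3 with the median over detected probes, and 1 and 1 without scaling. They were 4 and 2 without a filter, 5 and 3 with the total gene signal, 10 and 0 with the authors' values (limma gave 10 lower at an unadjusted p under 0.05), 2 and 3 with slide row as a block and 2 and 1 with the replicate block. Signal over background limits the 5p forms, of which 1, miR-29c-5p, was well above background.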
